A study of Mus musculus with 9 samples.

Results

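The genes described here encode the oxidative phosphorylation machinery of the mouse, in the nucleus and in mitochondrial DNA. They are the protein-coding genes whose symbol starts with Ndufa, Ndufb, Ndufc, Ndufs, Ndufv, Sdha, Sdhb, Sdhc, Sdhd, Uqcr, Cox4, Cox5, Cox6, Cox7, Cox8, Atp5 or mt-, kept where 3 or more libraries reached a value of 10, with pseudogenes left out. The deposited table held 110 genes that matched by name, and 106 of them passed the minimum, out of 15997 genes tested among 43629 identifiers. All 106 reached the minimum in all 9 libraries, so no member passed through 1 group alone. Of these, 93 were nuclear and 13 mitochondrial. The nuclear genes comprised 81 subunits (36 of complex I, 4 of complex II, 8 of complex III, 16 of complex IV with Ndufa4 counted there, and 17 of complex V) and 12 assembly factors, Ndufaf1 to Ndufaf8 and Sdhaf1 to Sdhaf4, which share the symbols but are not part of the finished complexes. The 13 mitochondrial genes encode 7 subunits of complex I, 1 of complex III, 3 of complex IV and 2 of complex V. The 4 genes that did not pass were the tissue-restricted subunits Ndufa4l2, Cox7b2, Cox8b and Cox8c, whose values lay between 0 and 3 in every library.

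Complexes I to IV pass electrons from NADH and succinate to oxygen and, except for complex II, pump protons across the inner mitochondrial membrane, and complex V, the ATP synthase, uses the returning protons to make ATP. Every complex except complex II combines subunits made from nuclear genes and imported into the organelle with core subunits made from mitochondrial DNA, which is copied into long transcripts from both strands and cut into single messages. In bone marrow, quiescent stem cells are known for relying little on this machinery, whereas proliferating and differentiating progenitors use more of it.

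RNA was sequenced from bone marrow c-KIT+ cells of C57BL/6 mice treated with pIpC, a double-stranded RNA mimic that induces interferon. The cells were enriched with magnetic beads against CD117, the c-KIT receptor of blood progenitors. Libraries numbered 1, 2 and 3 came from each of 3 genotypes. The group called KI_Chd7del had the genotype Chd7f/f, Mx1-Cre, Cbfb+/56M. It carries floxed alleles of Chd7, a chromatin remodeller, together with the KI alleles. The group called KI had the genotype Mx1-Cre, Cbfb+/56M, in which Cre, driven by the interferon-responsive Mx1 promoter, switches on a knock-in Cbfb allele that models the CBFB-MYH11 leukaemia fusion. The group called WT had the genotype label WT, which names no Mx1-Cre, so the Cre itself is not shared with that group. Mx1-Cre acts in many interferon-responsive cells and not in blood cells alone. The labels give no ages, nor do they tie each library to its own mouse. The p-values therefore measure only the spread between these libraries, which may be technical.

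Values are reads per gene divided by 1 scaling factor per library and rounded, called normalised values below, and their total per library lay between 37538447 and 46159426. Myh11, part of the fusion, stood at 187, 164 and 176 in KI_Chd7del libraries and at 219, 194 and 176 in KI libraries, against 8, 9 and 5 in WT libraries. Chd7 read 1862, 1794 and 1921 in KI_Chd7del libraries and 1979, 2934 and 2009 in KI libraries. A value for the whole gene cannot check the loss of a floxed exon, and the difference did not pass the test (log2 fold change -0.29 ± 0.14 SE, adjusted p = 0.12). Kit, the gene of the selection marker, read 6131, 7732 and 8508 in KI_Chd7del libraries, 3868, 3226 and 3521 in KI libraries and 7362, 7354 and 7797 in WT libraries, so the selected cells differed in their marker. The 12 late neutrophil markers together took 3.50 to 4.52% of the values in KI_Chd7del libraries, 0.423 to 1.92% in KI libraries and 10.2 to 12.03% in WT libraries. The 9 erythroid markers took 0.0234 to 0.0629%, 0.214 to 0.339% and 0.0453 to 0.0626% in KI_Chd7del, KI and WT libraries, and the 8 monocyte and macrophage markers took 0.239 to 0.260%, 0.451 to 0.478% and 0.120 to 0.131% in the same order. The 6 mast cell and basophil markers took 0.0977 to 0.137%, 0.183 to 0.286% and 0.0247 to 0.0311%, and the 6 progenitor markers 0.116 to 0.125%, 0.0900 to 0.107% and 0.0521 to 0.0629%. The 6 B cell markers took 0.0198 to 0.0381%, 0.0117 to 0.0183% and 0.0109 to 0.0131%, and the 5 megakaryocyte markers 0.00844 to 0.0128%, 0.00993 to 0.0172% and 0.00406 to 0.00635%. No marker of these lists was at 0 in all libraries. The groups therefore differed in the RNA of these markers. In KI against WT cells, every list except the late neutrophil and B cell lists held markers that passed in both directions. The part of cell make-up in the results below was not tested. In bulk RNA, fewer cells of a type and less RNA per cell cannot be told apart. KI_Chd7del library 1 had the highest value of all 9 libraries for every mitochondrial gene, and results that rest on it are given with and without it.

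Relative to the nuclear genes, the summed mitochondrially encoded genes were highest in KI_Chd7del cells. KI cells stood above WT cells by group mean, and whether KI and WT libraries overlapped depended on the measure. The 13 mitochondrial genes summed to 2.85, 2.25 and 2.09 times the 93 nuclear genes in KI_Chd7del libraries, to 1.86, 1.79 and 1.72 times in KI libraries and to 1.53, 1.56 and 1.63 times in WT libraries. The 3 groups did not overlap, and the lowest KI_Chd7del library stood above the highest KI library. This ratio does not depend on how libraries are scaled against each other. The mean ratio was 2.40 ± 0.402 in KI_Chd7del cells, 1.79 ± 0.0706 in KI cells and 1.57 ± 0.0538 in WT cells (SD, n = 3 each). On the log2 scale the ratio was higher by 0.41 in KI_Chd7del than in KI cells, by 0.59 in KI_Chd7del than in WT cells and by 0.19 in KI than in WT cells. Without KI_Chd7del library 1 the first 2 of these differences were 0.27 and 0.46. With every gene weighted alike, as the mean log2 value of mitochondrial minus nuclear genes, KI_Chd7del libraries had 2.74, 2.35 and 2.22, KI libraries 1.93, 1.74 and 1.82 and WT libraries 1.77, 1.74 and 1.78. KI_Chd7del libraries stood above all others, and KI and WT libraries overlapped. A ratio over chosen genes was given no p-value.

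The nuclear sum was 387308, 392074 and 380954 in KI_Chd7del libraries, 420077, 381651 and 396826 in KI libraries and 439614, 427445 and 423131 in WT libraries, lowest in KI_Chd7del and highest in WT cells by group mean, with KI_Chd7del and KI libraries overlapping. The mitochondrial sum was 1105127, 880966 and 797525 in KI_Chd7del libraries, 782763, 684879 and 683449 in KI libraries and 671597, 668008 and 691097 in WT libraries. KI_Chd7del libraries stood above all others, and KI and WT libraries overlapped. A single gene, mt-Co1, the catalytic core of complex IV, made up 44.5 to 46.6% of the mitochondrial sum in every library. Without it the ratio still separated the groups, at 1.14 to 1.56 in KI_Chd7del, 0.951 to 1.02 in KI and 0.824 to 0.878 in WT libraries. As a share of each library's total, the mitochondrial genes made up 2.12 to 2.90% in KI_Chd7del, 1.79 to 2.01% in KI and 1.47 to 1.55% in WT libraries, and the nuclear genes 1.01 to 1.03%, 0.996 to 1.08% and 0.917 to 1.02% in the same order. By this measure the nuclear genes had no lower group mean in the mutant groups.

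**Figure D1:**
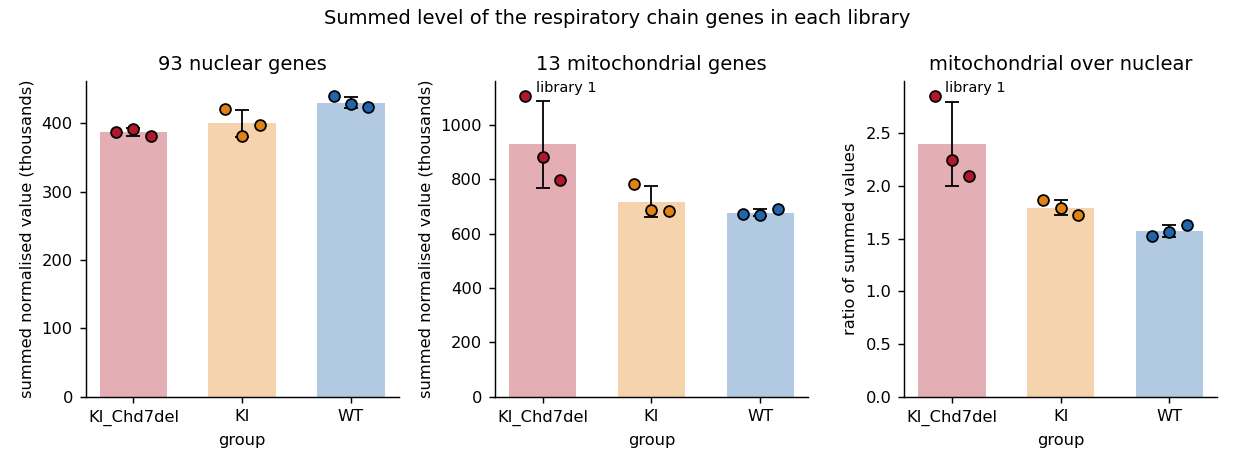
Summed normalised value of the 93 nuclear and the 13 mitochondrial genes, and their ratio, by group; points are libraries, bars group means and error bars SD (n = 3). The ratio runs from 2.09 to 2.85 in KI_Chd7del libraries, from 1.72 to 1.86 in KI libraries and from 1.53 to 1.63 in WT libraries, and library 1 of KI_Chd7del is the highest.

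The mitochondrial genes fell into a high and a low set by level, and the low set lies within 1 near-identical copy in the nuclear genome. Per kilobase of exon, the WT means were 202821 for mt-Co1, 98521 for mt-Cytb (cytochrome b of complex III), 87417 for mt-Nd1, 43476 for mt-Nd2, 37198 for mt-Nd6, 31290 for mt-Nd4 and 28865 for mt-Nd5, all but mt-Co1 and mt-Cytb being membrane subunits of complex I. Against these, mt-Co2 (which takes electrons from cytochrome c) had 3346, mt-Atp8 2984, mt-Co3 2698, mt-Atp6 (the proton channel of the ATP synthase) 2270, mt-Nd3 902 and mt-Nd4l 346. A copy of part of the mitochondrial genome on chromosome 1, minus strand, carries annotated pseudogenes near position 24612775 (GRCm38) that are identical to mt-Co2 over 681 bases, to mt-Atp6 over 678, to mt-Co3 over 783, to mt-Nd4l over 294 and to the 876 bases at the start of mt-Nd4, and mt-Atp8 lies between the mt-Co2 and mt-Atp6 parts. Reads from these stretches cannot be told apart from reads of the copy. Of mt-Atp8, 21.1% lies in an annotated copy. Genes of the high set have copies too. All of mt-Co1 lies in a copy of at least 95% identity and 31.3% of it in one of at least 99%, and 52.3% of mt-Nd5 and 49.1% of mt-Nd2 lie in copies of at least 95%, none of it at 99%. The values of mt-Co2, mt-Co3, mt-Atp6 and mt-Nd4l were 44.7 to 66.4% of the gene and its pseudogene together in all 9 libraries. All levels and changes of the low set are therefore uncertain, as in part are those of mt-Nd4. The grouping into these sets was made after the values were seen.

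**Figure D2:**
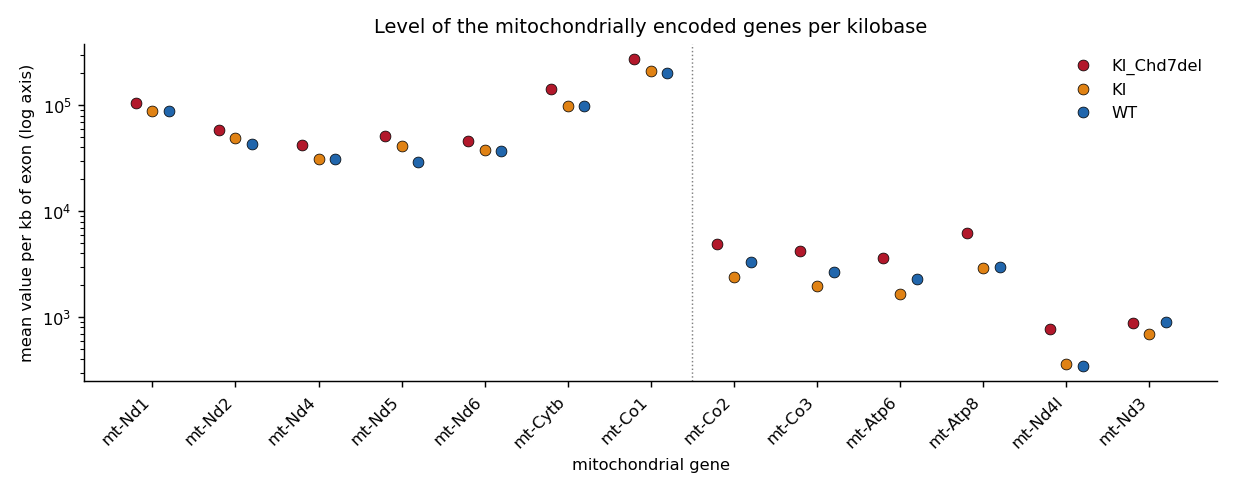
Mean normalised value per kilobase of exon of each mitochondrial gene in each group, on a log axis; the dotted line separates the 7 genes of higher level from the 6 within the chromosome 1 copy. The lowest of the 7 is mt-Nd5 in WT at 28865, and the highest of the 6 is mt-Atp8 in KI_Chd7del at 6235. Of the 7, mt-Nd4 lies partly within that copy.

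The pair examined base by base was mt-Nd3, a small membrane subunit of complex I, and its chromosome 1 pseudogene Gm28438. In the reference sequences they differ at a single base over 345 compared bases. Which base the mitochondrial DNA of these mice carries there is not known from these values. If it is that of the copy, this base cannot separate reads of mt-Nd3 from reads of Gm28438. The opening 60 bases of both are shown because this base is what could separate their reads if the mice match the reference, with the base that differs in capitals. The gene lies at chrM:9459-9806 on the plus strand and the pseudogene at chr1:24612775-24613119 on the minus strand (GRCm38, GENCODE transcripts).
mt-Nd3: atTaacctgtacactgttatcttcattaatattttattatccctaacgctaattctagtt
Gm28438: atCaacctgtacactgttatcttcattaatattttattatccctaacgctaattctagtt
Counted from 1 at the 5′ end of the gene, with the base of mt-Nd3 before that of the copy, the difference is T3C.

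The share of mt-Nd3 within the pair split the KI_Chd7del libraries. It was 80.0, 53.7 and 52.8% in KI_Chd7del libraries, 82.9, 85.1 and 84.8% in KI libraries and 86.2, 84.2 and 83.4% in WT libraries. Library 1 of KI_Chd7del stood close to the KI and WT libraries, and libraries 2 and 3 stood far below them. The underlying values of mt-Nd3 were 519, 210 and 200 in KI_Chd7del libraries, 262, 228 and 240 in KI libraries and 356, 304 and 282 in WT libraries. Those of Gm28438 were 130, 181 and 179 in KI_Chd7del libraries, 54, 40 and 43 in KI libraries and 57, 57 and 56 in WT libraries. The value assigned to Gm28438 rose in KI_Chd7del against KI cells by 1.81 on the log2 scale (adjusted p = 0.0002), while mt-Nd3 passed in no comparison. Since the base carried by these mice is not known, neither value can be read as expression of gene or copy alone. Without KI_Chd7del library 1, mt-Nd3 fell in KI_Chd7del against WT cells by 0.61 (adjusted p = 0.0058) and in KI against WT cells by 0.36 (adjusted p = 0.025), so both calls depend on whether that library is in the fit. Over all 9 libraries the share ran from 60.8 to 64.9% for mt-Co2 with Gm28661 and from 61.2 to 66.4% for mt-Co3 with Gm28437, without such a split. For mt-Nd4 with Gm28439 it was 97.8% in every KI_Chd7del library, against 98.4 to 98.6% in KI and WT libraries. For mt-Nd4l with Gm10222 it was 58.5, 57.0 and 51.2% in KI_Chd7del libraries, against 52.5 to 60.4% in KI and WT libraries.

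In KI_Chd7del against KI cells, the calls among mitochondrial genes differed with the deposited scaling between those outside and those inside the nuclear copy. Of the 13 genes, 7 passed as higher and 0 as lower, that is 53.8% higher, where 17.5% of all tested genes were called higher and 22.9% lower. Among the 6 genes with under 50% of their length in a copy, at 99% identity, 1 passed as higher (16.7%, close to the share over all genes), and among the 6 within the chromosome 1 copy 5 did (83.3%), mt-Nd4 being in neither set. The calls outside the copy depended on scaling. Scaled to the column total, mt-Nd5 passed as higher too (0.31, adjusted p = 0.042). Scaled to the nuclear sum, mt-Nd5, mt-Nd6 and mt-Co1 did (0.34, 0.34 and 0.41, adjusted p of 0.031, 0.034 and 0.045). Under neither did mt-Nd1 or mt-Nd2 pass. In 10 of the 13 every KI_Chd7del library stood above every KI library, against 23.8% of all tested genes. The same held in 4 of the 6 with under 50% of their length in a copy. The median log2 fold change of the 13 was 0.40, against -0.01 over all tested genes. The largest single message after mt-Co1, mt-Cytb, read 192750, 153309 and 139261 in KI_Chd7del libraries against 123022, 109126 and 106893 in KI libraries. The groups did not overlap, and mt-Cytb rose by 0.51 ± 0.13 (adjusted p = 0.012). The other riser of the high set was mt-Nd4, with 69544, 53953 and 49125 in KI_Chd7del libraries and 47134, 41001 and 41444 in KI libraries, and a change of 0.40 ± 0.12 (adjusted p = 0.029). Of mt-Nd4, 63.6% lies in the chromosome 1 copy, so its change is uncertain in part. The remaining high-set genes had positive differences that did not pass with the deposited scaling, from 0.22 for mt-Nd1 (adjusted p = 0.20) to 0.36 for mt-Co1 (adjusted p = 0.0785). The other 5 risers were mt-Co2, mt-Co3, mt-Atp6, mt-Atp8 and mt-Nd4l, all within the chromosome 1 copy, with log2 changes of 1.02 to 1.12. As one of them, mt-Atp6 read 3076, 2229 and 2098 in KI_Chd7del libraries and 1268, 1006 and 1091 in KI libraries, with no overlap. The pseudogenes that match these genes moved alike, with log2 differences of 0.97 for Gm28661, 1.08 for Gm10925, 0.96 for Gm28437 and 1.11 for Gm10222. Pseudogenes of high-set genes rose more than their genes did. Gm28439 rose by 0.99, where mt-Nd4 rose by 0.40, and Gm29216 and Gm13340 rose by 1.01 and 0.99, where mt-Co1 did not pass. Gm13339 rose by 0.96, where mt-Nd2 did not pass. Without KI_Chd7del library 1 the change of mt-Cytb was 0.37 (adjusted p = 0.017) and that of mt-Nd4 0.26 (adjusted p = 0.045), and without library 3 of KI_Chd7del 11 genes passed in place of 7.

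In KI_Chd7del against WT cells, 11 of the 13 mitochondrial genes passed as higher and 0 as lower, 84.6% against 24.0% higher and 24.3% lower among all tested genes. In 11 of the 13 every KI_Chd7del library stood above every WT library, against 28.9% of all tested genes. Their median log2 fold change was 0.51, against 0.02 over all tested genes. The clearest was mt-Nd5, a proton-pumping subunit of complex I, with 108934, 88677 and 82271 in KI_Chd7del libraries against 52569, 50740 and 54642 in WT libraries. Every KI_Chd7del library stood above every WT library, and mt-Nd5 rose by 0.82 ± 0.11 (adjusted p = 0.0003). The changes of mt-Cytb (0.51, adjusted p = 0.0090), mt-Nd2 (0.41, adjusted p = 0.025) and mt-Nd4 (0.40, adjusted p = 0.024) were smaller, and mt-Co1 (0.41, adjusted p = 0.047) and mt-Nd6 (0.30, adjusted p = 0.0497) passed narrowly. The values of mt-Co1 were 501111, 392197 and 364920 in KI_Chd7del libraries and 309211, 311452 and 319413 in WT libraries, without overlap. Only mt-Nd1 and mt-Nd3 did not pass, with differences of 0.25 and -0.16. Without KI_Chd7del library 1, 7 genes passed as higher and mt-Nd3 as lower; 7 passed without WT library 1, 5 without WT library 2 and 7 without WT library 3. Among the calls lost without KI_Chd7del library 1 was mt-Co1, at 0.27 (adjusted p = 0.10).

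In KI against WT cells, the mitochondrial genes did not move as a group. Of 13 genes, 1 passed as higher (7.69%, against 31.8% of all tested genes) and 3 as lower (23.1%, against 27.2%), with a median log2 fold change of 0.00 against 0.02 over all tested genes. The gene that rose was mt-Nd5, with 81846, 72699 and 73038 in KI libraries against 52569, 50740 and 54642 in WT libraries. Its log2 change was 0.53 ± 0.11 (adjusted p = 0.0025). In contrast, mt-Cytb read 123022, 109126 and 106893 in KI libraries and 109074, 113390 and 115659 in WT libraries, so the groups overlapped. The 3 that fell were mt-Co2 (-0.50, adjusted p = 0.024), mt-Co3 (-0.48, adjusted p = 0.038) and mt-Atp6 (-0.47, adjusted p = 0.020), all within the chromosome 1 copy. Scaled to the column total these 3 differences were -0.27, -0.25 and -0.24 and 0 genes passed as lower. With the deposited scaling, 0 passed as lower without KI library 2 or without WT library 1, and 1 without WT library 2.

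**Figure D3:**
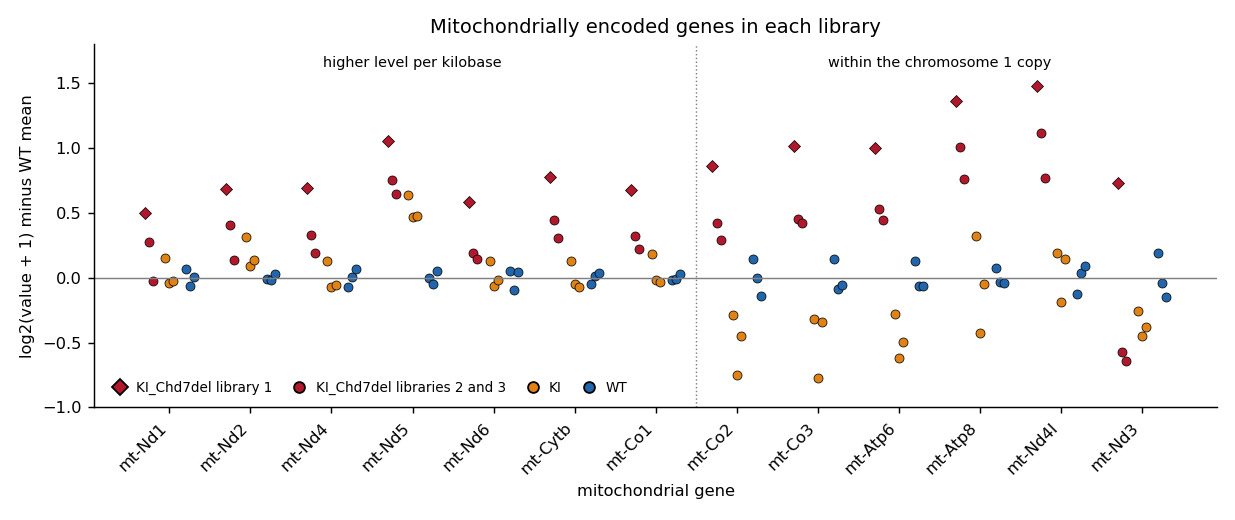
Log2(value + 1) of each mitochondrial gene in each library minus the mean of the WT libraries; the dotted line separates the 7 genes of higher level from the 6 within the chromosome 1 copy. All 3 KI_Chd7del libraries lie above all KI and WT libraries for mt-Cytb, mt-Nd4 and mt-Co1 on the left. So they do, narrowly against KI, for mt-Nd5 and mt-Nd6. KI libraries lie above WT libraries for mt-Nd5, and KI_Chd7del libraries 2 and 3 part from library 1 for mt-Nd3. Of the 7, mt-Nd4 lies partly within that copy.

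The value of mt-Nd6 over that of mt-Nd5 and the ribosomal RNAs of the organelle were compared as well. The light-strand gene mt-Nd6 overlaps mt-Nd5 by 14 bases on the opposite strand, and the strandedness of the libraries is not given in the sources used here. The value of mt-Nd6 over that of mt-Nd5 was 0.249 to 0.265 in KI_Chd7del and 0.254 to 0.260 in KI libraries, against 0.355 to 0.380 in WT libraries. KI_Chd7del and KI libraries overlapped, and all 6 stood below WT. In KI against WT cells mt-Nd6 itself differed by 0.01 (adjusted p = 0.92) while mt-Nd5 rose, so the ratio carried the difference of mt-Nd5. The 16S ribosomal RNA mt-Rnr2 read 13793, 12415 and 11169 in KI_Chd7del libraries, 9487, 9852 and 10205 in KI libraries and 17773, 18780 and 17300 in WT libraries. It fell in KI against WT cells by 0.87 (adjusted p = 1.45e-05) and in KI_Chd7del against WT cells by 0.53 (adjusted p = 0.0005), and rose in KI_Chd7del against KI cells by 0.33 (adjusted p = 0.0084). The 12S ribosomal RNA mt-Rnr1 fell in KI against WT cells by 0.49 (adjusted p = 0.0016) and in KI_Chd7del against WT cells by 0.36 (adjusted p = 0.012). These changes of both ribosomal RNAs are those of the deposited scaling. Scaled to the column total, the median over all genes moved from 0.02 to 0.25 in KI and from 0.02 to 0.26 in KI_Chd7del against WT cells. The sizes of the falls against WT therefore depend on scaling. How much ribosomal RNA a library keeps depends on its preparation, which the labels describe only as a standard Illumina protocol.

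In KI against WT cells, nuclear genes of complexes I, III, IV and V were more often called lower than higher with the deposited scaling. Of 93 genes, 44 passed as lower (47.3%, against 27.2% of all tested genes) and 5 as higher (5.38%, against 31.8%), with a median log2 fold change of -0.17 against 0.02 over all tested genes. The counts depended on scaling. When each library was scaled to its column total, the median over all genes became 0.25, and 28 nuclear genes passed as higher (30.1%, against 44.99% of all genes) and 13 as lower (14.0%, against 15.7%). With late neutrophil genes taken out of that total, 8 passed as higher. Among the 58 nuclear genes with at most 10% of their transcript in a near-identical copy, 25 passed as lower and 4 as higher, and leaving out KI library 1, KI library 3, WT library 2 or WT library 3 left 3 of the 93 as higher. Among complex I subunits, which carry electrons from NADH to ubiquinone, 19 of 36 passed as lower and 1 as higher; among complex III subunits 4 of 8 and 0; among complex IV subunits 8 of 16 and 3; and among complex V subunits 7 of 17 and 1. Complex II, which has no mitochondrial gene, had 1 of 4 lower (25%, near the share over all genes) and a median log2 fold change of 0.03. The gene called lower was Sdhd, the membrane anchor of complex II (-0.20, adjusted p = 0.0085, and 0.03 when scaled to the column total). Of the 12 assembly factors, 5 passed as lower and 0 as higher.

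Among the general nuclear subunits that fell in KI cells were accessory subunits of complex I and Cox5a of complex IV. The membrane subunit Ndufb7 (chromosome 8, 83566671 to 83571626) read 3037, 2901 and 2679 in KI libraries against 4780, 5058 and 4853 in WT libraries, a log2 change of -0.77 ± 0.06 (adjusted p = 1.02e-05). Ndufb3 read 1705, 1640 and 1646 in KI libraries against 2728, 2622 and 2726 in WT libraries, a change of -0.69 ± 0.05 (adjusted p = 3.6e-06). Ndufs6, which binds zinc and is needed late in assembly, read 1375, 1349 and 1422 in KI libraries against 2116, 2074 and 2039 in WT libraries, a change of -0.59 ± 0.05 (adjusted p = 7.04e-06). In all 3 genes every KI library stood below every WT library, and the differences when scaled to the column total were -0.54, -0.46 and -0.36, each passing. Cox5a, a matrix-side subunit of complex IV whose span overlaps Gm26631 on the opposite strand, read 1857, 1665 and 1641 in KI libraries against 2803, 2842 and 2812 in WT libraries and fell by 0.71 ± 0.06 (adjusted p = 6.79e-06), or by 0.48 when scaled to the column total. In complex III Uqcrb (-0.40, adjusted p = 0.00016) and Uqcr10 (-0.35, adjusted p = 0.00096), both small subunits, fell, and in complex V Atp5k (-0.38, adjusted p = 0.00021), which helps join synthase pairs, and Atp5j (-0.36, adjusted p = 0.00045), part of the stalk. Scaled to the column total, Uqcrb and Atp5k still passed as lower at -0.17 and -0.15, and Uqcr10 and Atp5j did not at -0.12 and -0.13. Outside the tissue-restricted subunits, only 2 nuclear members passed as higher, Atp5a1, the alpha subunit of the catalytic head (0.21, adjusted p = 0.023), and Ndufb8 (0.13, adjusted p = 0.034), both also with the column total (0.44 and 0.36). Ndufb3, Ndufs6, Uqcrb, Uqcr10 and Atp5k share 36.96 to 68.6% of their transcript with a copy of at least 95% identity, Atp5j overlaps Gabpa on the opposite strand, and Ndufb7 has no such copy or overlap.

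In KI_Chd7del against KI cells, few nuclear members moved and they moved both ways. Of 93 genes, 10 passed as higher (10.8%, against 17.5% of all tested genes) and 9 as lower (9.68%, against 22.9%), with a median log2 fold change of -0.00 against -0.01. Of the 12 assembly factors, 3 passed as higher and 0 as lower. Ndufaf4, a complex I assembly factor, read 1021, 1183 and 1018 in KI_Chd7del libraries against 793, 770 and 767 in KI libraries and rose by 0.46 ± 0.07 (adjusted p = 0.0011). Ndufaf2, a chaperone of a late step of complex I assembly, read 474, 456 and 469 in KI_Chd7del libraries against 343, 338 and 342 in KI libraries and rose by 0.45 ± 0.08 (adjusted p = 0.00195). Neither gene overlapped between the groups. Among subunits, Ndufa4, a small subunit of complex IV once assigned to complex I, rose by 0.20 (adjusted p = 0.0071). The subunits that fell include Ndufa3 (-0.40, adjusted p = 0.0016) and Ndufa11 (-0.24, adjusted p = 0.017) of the complex I membrane arm, and Sdhb, the iron-sulfur subunit of complex II (-0.25, adjusted p = 0.0052). Uqcrfs1, the Rieske iron-sulfur protein of complex III, fell by 0.14 (adjusted p = 0.033), Cox5b of complex IV by 0.23 (adjusted p = 0.024) and Atp5d, the delta subunit of the synthase, by 0.22 (adjusted p = 0.030), of which Uqcrfs1 and Atp5d did not pass when scaled to the column total (-0.13 and -0.20). Ndufa3 read 2180, 1980 and 1879 in KI_Chd7del libraries, 2769, 2497 and 2668 in KI libraries and 3397, 3424 and 3344 in WT libraries, and its 3 groups did not overlap.

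The 10 higher calls became 6 without KI_Chd7del library 2, KI library 2 or KI library 3, and the 9 lower calls became 4 without KI_Chd7del library 2, 3 without KI_Chd7del library 3, 3 without KI library 1 and 4 without KI library 3. With upper-quartile factors 27 nuclear members passed as higher and 3 as lower.

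In KI_Chd7del against WT cells, 47 of 93 nuclear members passed as lower (50.5%, against 24.3% of all tested genes) and 2 as higher (2.15%, against 24.0%), with a median log2 fold change of -0.19 against 0.02. When scaled to the column total, 21 passed as higher (22.6%, against 43.8% of all genes) and 7 as lower (7.53%, against 11.8%), with the median over all genes at 0.26. In 58 of the 93 every KI_Chd7del library stood below every WT library with the deposited scaling, against 28.8% of all tested genes. By complex, 19 of 36 subunits of complex I, 2 of 4 of complex II, 6 of 8 of complex III, 9 of 16 of complex IV and 8 of 17 of complex V passed as lower. Ndufa3 fell by 0.75 ± 0.06 (adjusted p = 3.27e-05). Ndufb7 read 3264, 2907 and 2935 in KI_Chd7del libraries against 4780, 5058 and 4853 in WT libraries and fell by 0.69 ± 0.06 (adjusted p = 4.8e-05). Cox5a read 1920, 1865 and 1871 in KI_Chd7del libraries against 2803, 2842 and 2812 in WT libraries and fell by 0.58 ± 0.06 (adjusted p = 5.42e-05). These 3 genes also passed as lower when scaled to the column total, at -0.51, -0.44 and -0.33. Smaller falls were those of Uqcrb (-0.27, adjusted p = 0.0027), Uqcr11 (-0.29, adjusted p = 0.0035), Atp5h (-0.38, adjusted p = 0.00056) and Atp5k (-0.31, adjusted p = 0.0012), none of which passed when scaled to the column total. Sdhd (-0.21, adjusted p = 0.0085) and Sdhb (-0.16, adjusted p = 0.029) also passed as lower, but at 0.04 and 0.08 they changed sign when scaled to the column total. The KI and KI_Chd7del comparisons with WT share the WT libraries. Ndufs5, named after its values were seen, read 543, 1067 and 1086 in KI_Chd7del libraries against 1358, 1412 and 1326 in WT libraries, so KI_Chd7del library 1 stood apart from its group. The pseudogene BC002163, which shares 46.9% of the transcript at 99.4% identity, read 737, 46 and 43 in KI_Chd7del libraries and 47, 60 and 53 in WT libraries. Gene and copy together gave 1280, 1113 and 1129 in KI_Chd7del libraries and 1405, 1472 and 1379 in WT libraries.

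**Figure D4:**
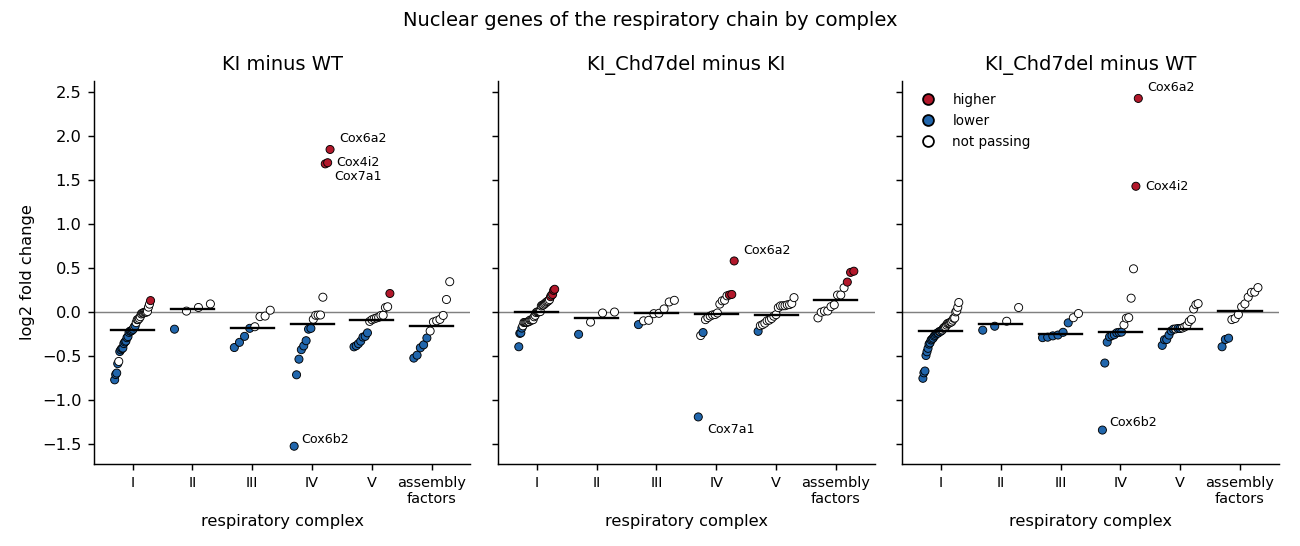
Log2 fold change of each of the 93 nuclear genes, by complex and for assembly factors, in the 3 comparisons with the deposited scaling; filled points passed an adjusted p of 0.05, open points did not, and bars are medians. Most points lie below 0 against WT (44 and 47 called lower), few are filled between KI_Chd7del and KI, and tissue-restricted subunits of complex IV lie farthest out; scaled to the column total, 28 and 21 of them passed as higher against WT in KI and KI_Chd7del cells, 30.1% and 22.6%, where 44.99% and 43.8% of all genes did.

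The widest differences among nuclear members were in complex IV subunits that have a tissue-restricted and a general form. Cox6a2, the heart and skeletal muscle form of subunit VIa (chromosome 7, 128205435 to 128206387, minus strand), read 190, 179 and 187 in KI_Chd7del libraries, 99, 123 and 155 in KI libraries and 33, 32 and 36 in WT libraries. The 3 groups did not overlap. Cox6a2 rose in KI against WT cells by 1.85 ± 0.18 (adjusted p = 2.53e-05), in KI_Chd7del against WT cells by 2.43 ± 0.18 (adjusted p = 1.86e-05) and in KI_Chd7del against KI cells by 0.58 ± 0.18 (adjusted p = 0.030, or 0.062 without KI_Chd7del library 1). Its general counterpart Cox6a1 had 5771, 5756 and 5430 in KI_Chd7del libraries, 6501, 5416 and 6136 in KI libraries and 6919, 7176 and 6532 in WT libraries. Cox6a2 lies wholly within the span of the integrin gene Itgad on the opposite strand, which read 333, 221 and 308 in KI_Chd7del libraries, 928, 576 and 435 in KI libraries and 481, 493 and 345 in WT libraries, so the order of the groups differed between the 2 genes.

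Cox4i2, the form of subunit IV known from lung, read 43, 37 and 33 in KI_Chd7del libraries, 39, 61 and 39 in KI libraries and 15, 13 and 12 in WT libraries. It rose against WT in KI cells by 1.70 ± 0.24 (adjusted p = 0.00027) and in KI_Chd7del cells by 1.43 ± 0.24 (adjusted p = 0.0013), while KI_Chd7del and KI libraries overlapped. Its general counterpart Cox4i1 read 10083 to 11237 in KI_Chd7del, 10373 to 11827 in KI and 11566 to 11826 in WT libraries and passed in no comparison. Cox7a1, another muscle form, read 25, 23 and 16 in KI_Chd7del libraries, 53, 50 and 45 in KI libraries and 13, 12 and 20 in WT libraries. With the deposited scaling only the KI libraries stood apart. Scaled to the column total, Cox7a1 also passed as higher in KI_Chd7del against WT cells (0.72, adjusted p = 0.041). Cox7a1 rose in KI against WT cells by 1.68 ± 0.27 (adjusted p = 0.00051) and fell in KI_Chd7del against KI cells by 1.19 ± 0.27 (adjusted p = 0.0075). Its general counterpart Cox7a2 went the other way, at 3941, 3687 and 3607 in KI_Chd7del libraries, 3450, 3367 and 3018 in KI libraries and 4505, 4835 and 4910 in WT libraries. It fell in KI against WT cells by 0.54 (adjusted p = 9.52e-05) and rose in KI_Chd7del against KI cells by 0.19 (adjusted p = 0.040).

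Cox6b2, the testis form of subunit VIb, was the nuclear member that fell most. It read 414, 344 and 386 in KI_Chd7del libraries, 373, 320 and 314 in KI libraries and 1084, 908 and 914 in WT libraries. Both mutant groups stood below every WT library and overlapped each other. Cox6b2 fell in KI against WT cells by 1.53 ± 0.11 (adjusted p = 4.94e-06) and in KI_Chd7del against WT cells by 1.34 ± 0.11 (adjusted p = 3e-05). Its general counterpart Cox6b1 read 6809, 6684 and 6539 in KI_Chd7del libraries, 7359, 6706 and 6628 in KI libraries and 7967, 7687 and 7861 in WT libraries, and its falls of 0.19 and 0.23 against WT became differences of 0.04 and 0.02 with the column total. The changes of Cox6a2, Cox4i2 and Cox6b2 against WT and those of Cox7a1 against WT in KI cells and against KI in KI_Chd7del cells kept their direction and passed when scaled to the column total. In every library the tissue-restricted form had a lower value than its general counterpart. Of the other forms, Cox7a2l, Cox7b and Cox8a passed in no comparison with the deposited scaling, nor did Atp5g2 and Atp5g3, which with Atp5g1 encode the same ring subunit of the synthase. Atp5g1 fell in KI against WT cells by 0.40 (adjusted p = 0.010) and in KI_Chd7del against WT cells by 0.31 (adjusted p = 0.035), and at -0.17 and -0.07 neither passed when scaled to the column total. The pseudogene Gm10039, 99.8% identical to Atp5g1 over 411 bases, read 244, 38 and 200 in KI_Chd7del, 280, 25 and 186 in KI and 38, 42 and 314 in WT libraries. Gm6969, identical to Cox7a2l over 201 bases, read 1052, 31 and 30 in KI_Chd7del and 15 to 52 in KI and WT libraries. The values of Atp5g1 and Cox7a2l are therefore uncertain in part.

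**Figure D5:**
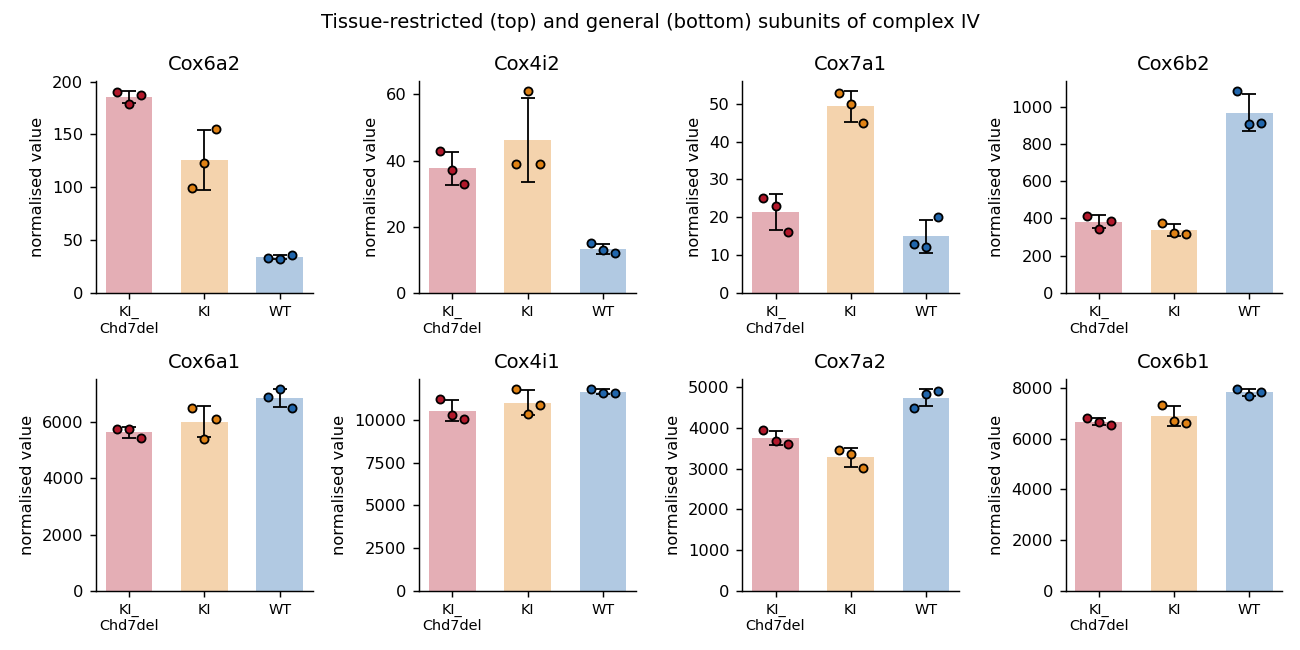
Normalised value of 4 tissue-restricted subunits of complex IV (top) and their general counterparts (bottom) in each library, with group means (bars) and SD (error bars, n = 3); each panel has its own axis from 0. Cox6a2 is highest in KI_Chd7del libraries (179 to 190), Cox7a1 in KI libraries (45 to 53) and Cox6b2 in WT libraries (908 to 1084).

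Promoters are shown for 4 nuclear genes that passed as lower in both mutant groups against WT with the deposited scaling, since nuclear members are known to be switched on through a few shared sites. NRF1, the ETS factor GABP and YY1 are the best known of the factors that bind them. Each window runs from 250 bases before to 50 bases after the start of transcription (RefSeq, GRCm38.p6), 5′ to 3′ along the gene. Capitals mark matches on either strand to the NRF1 motif GCATGCGC, the ETS motif CCGGAAG or the YY1 motif AAGATGGC, and no motif contains another. Atp5k (chr5:108434350-108434649, minus strand) holds an NRF1 and an ETS match, Ndufs6 (chr13:73328433-73328732, minus strand) a YY1 match, Cox6b1 (chr7:30626065-30626364, minus strand) an ETS match, and Cox6b2 (chr7:4753045-4753344, minus strand) none of the 3.
Atp5k: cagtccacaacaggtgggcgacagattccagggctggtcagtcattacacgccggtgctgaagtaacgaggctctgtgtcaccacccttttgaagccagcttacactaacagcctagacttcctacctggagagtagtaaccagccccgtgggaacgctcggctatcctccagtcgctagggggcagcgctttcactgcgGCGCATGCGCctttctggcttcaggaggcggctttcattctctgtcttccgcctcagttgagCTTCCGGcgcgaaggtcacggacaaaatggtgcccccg
Ndufs6: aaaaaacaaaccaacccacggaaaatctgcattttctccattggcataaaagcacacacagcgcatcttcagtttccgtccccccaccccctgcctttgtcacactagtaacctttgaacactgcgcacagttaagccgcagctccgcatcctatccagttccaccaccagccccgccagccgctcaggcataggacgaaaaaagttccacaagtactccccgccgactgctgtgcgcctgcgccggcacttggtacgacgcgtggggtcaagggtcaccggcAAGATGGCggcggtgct
Cox6b1: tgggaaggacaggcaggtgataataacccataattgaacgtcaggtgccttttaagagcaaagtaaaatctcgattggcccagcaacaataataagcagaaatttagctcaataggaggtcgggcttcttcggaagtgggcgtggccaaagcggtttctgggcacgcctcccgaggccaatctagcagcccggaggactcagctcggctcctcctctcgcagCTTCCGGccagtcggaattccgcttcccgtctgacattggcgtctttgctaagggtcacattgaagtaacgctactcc
Cox6b2: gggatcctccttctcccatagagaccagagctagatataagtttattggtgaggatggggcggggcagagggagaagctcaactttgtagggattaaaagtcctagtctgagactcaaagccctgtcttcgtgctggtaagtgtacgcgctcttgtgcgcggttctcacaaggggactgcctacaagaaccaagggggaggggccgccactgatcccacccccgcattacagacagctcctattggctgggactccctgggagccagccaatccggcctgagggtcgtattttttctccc
A window was at hand for 76 of the 93 nuclear members. The NRF1 motif was in 12 of them (15.8%, against 3.61% of 17492 coding genes and 2.71% of all 32851 promoter windows). The ETS motif was in 20 (26.3%, against 11.9% and 8.86%) and the YY1 motif in 9 (11.8%, against 3.22% and 2.75%). The CCAAT box, searched on both strands as CCAAT, was in 33 (43.4%, against 39.0% and 37.4%). A match is a description of the sequence, not of binding. In KI against WT cells, 7 of the 12 members with the NRF1 motif passed as lower, 11 of 20 with ETS, 5 of 9 with YY1 and 20 of 41 with none of these 3 motifs, and the medians were -0.19, -0.20, -0.22 and -0.20. In KI_Chd7del against WT cells the counts were 7 of 12, 12 of 20, 5 of 9 and 21 of 41. These counts share the dependence on scaling given above.

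Genes that serve the same organelle were set beside the members, with counts over all tested genes as given above. Among proteins that copy and transcribe mitochondrial DNA, 7 of 16 rose and 0 fell in KI_Chd7del against KI cells, with a median log2 fold change of 0.22. They include Mgme1, a mitochondrial nuclease (0.42, adjusted p = 0.0015), Twnk, the replicative helicase (0.34, adjusted p = 0.0049), and Mterf4 (0.39, adjusted p = 0.0054). Tfam, which packages mitochondrial DNA and starts its transcription, was named after its values were seen. It read 2106, 1916 and 1975 in KI_Chd7del libraries, 1833, 1610 and 1729 in KI libraries and 1994, 1969 and 1960 in WT libraries. It rose in KI_Chd7del against KI cells by 0.21 (adjusted p = 0.020, or 0.051 without KI_Chd7del library 1) and fell in KI against WT cells by 0.20 (adjusted p = 0.019), a difference of 0.03 with the column total. Polrmt, the mitochondrial RNA polymerase, and Tfb2m, its partner, rose against WT in KI cells by 0.22 and 0.27 and in KI_Chd7del cells by 0.26 and 0.34 (adjusted p of 0.038, 0.032, 0.021 and 0.016). In KI against WT cells 2 of the 16 rose and 7 fell, and in KI_Chd7del against WT cells 5 rose and 3 fell (5 and 3, and 7 and 0, with the column total). Of 18 proteins that process mitochondrial RNA, 3 rose and 7 fell in KI against WT cells, 2 rose and 1 fell in KI_Chd7del against KI cells, and 2 rose and 5 fell in KI_Chd7del against WT cells, where with the column total 7 rose and 0 fell in KI and 8 rose and 0 fell in KI_Chd7del against WT cells.

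The mitochondrial ribosome translates the 13 messages. Of its 75 tested proteins 54 fell and 1 rose in KI against WT cells (median -0.25), 18 rose and 3 fell in KI_Chd7del against KI cells (median 0.10), and 32 fell and 1 rose in KI_Chd7del against WT cells (median -0.16). With the column total 13 fell and 7 rose in KI against WT cells, 2 fell and 17 rose in KI_Chd7del against KI cells, and 2 fell and 18 rose in KI_Chd7del against WT cells, where the shares over all genes were 15.7% lower and 44.99% higher, 21.1% and 17.7%, and 11.8% and 43.8% in the same order. Mrpl44 read 1544, 1665 and 1675 in KI_Chd7del libraries, 1204, 1213 and 1249 in KI libraries and 1925, 1844 and 1945 in WT libraries. Its 3 groups did not overlap, and it fell by 0.64 in KI against WT cells (adjusted p = 9.3e-06) and rose by 0.41 in KI_Chd7del against KI cells (adjusted p = 0.00051). Mrpl44 passed in both comparisons with the column total too. Of 25 assembly proteins of complexes III and IV, 11 fell and 2 rose in KI against WT cells, and 4 fell and 9 rose with the column total. For complex I outside the rule, 3 of 9 fell and 1 rose, and for the ATP synthase 2 of 4 fell, against 0 and 3, and 0, with the column total. In the same comparison 6 of 13 protein import genes fell and 0 rose, or 3 fell and 2 rose with the column total, and 2 of 3 genes for cytochrome c and its partners fell, or 0 with the column total.

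Of 15 tested nuclear regulators of these genes, 6 rose and 4 fell in KI against WT cells, 0 rose and 7 fell in KI_Chd7del against KI cells, and 4 rose and 7 fell in KI_Chd7del against WT cells. With the column total 8 rose and 0 fell in KI, and 8 rose and 2 fell in KI_Chd7del against WT cells, while 7 still fell in KI_Chd7del against KI cells. Ppargc1b, a coactivator of respiratory genes, read 179, 243 and 192 in KI_Chd7del libraries, 377, 382 and 440 in KI libraries and 123, 112 and 99 in WT libraries. The groups did not overlap, and Ppargc1b rose in KI against WT cells by 1.84 (adjusted p = 8.46e-06) and fell in KI_Chd7del against KI cells by 0.97 (adjusted p = 0.0013). Ppard, a nuclear receptor of fatty acid metabolism, showed the same order, with changes of 1.67 (adjusted p = 3.98e-07) and -1.09 (adjusted p = 2.9e-05). Nrf1 itself read 2459, 2439 and 2509 in KI_Chd7del libraries, 2542, 2535 and 2565 in KI libraries and 2832, 2906 and 2725 in WT libraries. It fell in KI against WT cells by 0.15 (adjusted p = 0.015) and in KI_Chd7del against WT cells by 0.19 (adjusted p = 0.0054), and both differences were above 0 with the column total, at 0.08 and 0.06.

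The citrate cycle, which feeds the chain with NADH and succinate, moved both ways. Of its 16 genes 4 rose and 6 fell in KI against WT cells, 3 rose and 4 fell in KI_Chd7del against KI cells, and 2 rose and 5 fell in KI_Chd7del against WT cells, where the column total gave 8 and 2, 3 and 3, and 8 and 1 in the same order. Of 8 peroxide and superoxide defence genes, 4 rose and 2 fell in KI against WT cells. Prdx5, a peroxiredoxin, read 13568, 10585 and 11368 in KI_Chd7del libraries, 7821, 9440 and 6680 in KI libraries and 32450, 36822 and 37014 in WT libraries. It fell in KI against WT cells by 2.16 (adjusted p = 1.9e-06) and rose in KI_Chd7del against KI cells by 0.58 (adjusted p = 0.0085), the order of the late neutrophil markers given above; the part of those cells in it was not tested.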

How the data were processed

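The authors deposited 1 table of whole-number scores per gene, taken from the values and column totals to be reads divided by 1 size factor per library and rounded; the unit is score and not raw counts. Per the submitters' processing notes the tools were CASAVA 1.8.2, STAR 2.4, RSEM and DESeq2, with the build GRCm38; their roles, the annotation release and the strandedness are not given in the sources used here. Because the values are scaled and rounded, no count model was fitted, and the sequencing depth before scaling is unknown.

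The 15997 genes that reached a value of 10 in 3 or more libraries were tested on log2(value + 1) with limma 3.58.1 in R 4.3.3, with a mean-variance trend, all 9 libraries and 3 groups in 1 fit, 2-sided, and Benjamini-Hochberg adjustment over all tested genes at 0.05. Errors beside fold changes are standard errors of that fit, and fold changes on this scale understate the change of low genes. The procedure was tested on simulated data. Genes were matched to GENCODE M21 by identifier (42462 of 43629 with a symbol), near-identical copies were found with BLAST 2.17.0, and tables were handled with Python 3.11.15, pandas 2.3.3, numpy 2.4.6 and matplotlib 3.10.9. Promoters came from RefSeq. No 2 libraries of a group held the same values.

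The genes named are all mitochondrial members; for each complex and comparison up to 2 nuclear members in each direction with the smallest adjusted p; the subunits with tissue forms; up to 3 genes in each direction of each accompanying list; the 2 ribosomal RNAs; and Kit, Chd7, Myh11 and Cbfb. Other names are marked where they occur. The members, lists and promoter motifs were chosen with earlier results of these data known. Alternatives were other scalings, filters, pseudocounts and fits, each library left out in turn, and the replicate number as a block. Added after the data were seen were the ratio without mt-Co1 and the split of members by near-identical copies. No pairing of libraries by replicate number was seen.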

Additional observations from a re-analysis of the deposited data

How the results depend on the processing

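The 425 results were recomputed under those of 26 alternatives that apply to each. Scaled to the column total, nuclear calls in KI against WT cells were 28 higher and 13 lower (all genes 44.99% and 15.7%) and mitochondrial calls 2 higher and 0 lower; in KI_Chd7del against WT cells nuclear calls were 21 higher and 7 lower; and in KI_Chd7del against KI cells 5 nuclear genes were lower. Scaled to that total without late neutrophil genes, nuclear calls were 8 higher in KI against WT cells, 19 higher and 4 lower in KI_Chd7del against KI cells, and 12 higher and 15 lower in KI_Chd7del against WT cells. Upper-quartile factors gave 27 higher and 3 lower in KI_Chd7del against KI cells and 6 higher and 30 lower in KI_Chd7del against WT cells. Quantile normalisation gave 26 higher and 5 lower and, against WT, 4 higher and 25 lower; in KI against WT cells it gave 5 mitochondrial genes higher and a median mitochondrial minus nuclear difference of 0.39, against 0.17. Scaled to the nuclear sum, nuclear calls were 12 higher in KI against WT cells, 19 higher in KI_Chd7del against KI cells, and 13 higher and 14 lower in KI_Chd7del against WT cells. A minimum of 50 gave 3 higher in KI against WT cells, 2 groups alone gave 6 higher in KI_Chd7del against KI cells, and limma without the trend gave 5 lower in KI_Chd7del against KI cells and 4 higher in KI_Chd7del against WT cells. Taken as a mean of log2 values over members, the mitochondrial over nuclear ratio differed by 0.066 in KI against WT cells and 0.60 in KI_Chd7del against KI cells. The cause of these shifts was not tested.

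Scaled to the column total, 22 differences called under either scaling changed sign: in KI against WT cells Atpaf2 (0.0079), Cox6a1 (0.034), Cox6b1 (0.044), Cox7b (0.19), Cycs (0.018), Nrf1 (0.083), Sdhd (0.034), Tfam (0.032) and Yy1 (0.038); in KI_Chd7del against WT cells Cbfb (0.18), Cox6b1 (0.016), Cox7b (0.18), Dld (0.0085), Hccs (0.031), Ndufa4 (0.018), Nrf1 (0.055), Ptcd3 (0.055), Sdhb (0.085), Sdhd (0.040), Ssbp1 (0.0044), Uqcr10 (0.016) and Usmg5 (0.089).

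Leaving out 1 library at a time, nuclear calls ranged from 3 to 6 higher and 38 to 45 lower in KI against WT cells, from 6 to 10 and 3 to 12 in KI_Chd7del against KI cells, and from 2 to 3 and 35 to 50 in KI_Chd7del against WT cells. Mitochondrial calls ranged from 1 to 1 higher and 0 to 4 lower, from 6 to 11 and 0 to 0, and from 5 to 12 and 0 to 1 in the same order. The median mitochondrial minus nuclear difference ranged from 0.12 to 0.20, 0.28 to 0.49 and 0.57 to 0.78, and the log2 difference of the ratio from 0.16 to 0.22, 0.27 to 0.50 and 0.46 to 0.69. Ndufs5 in KI_Chd7del against KI cells ranged from -0.28 to 0.22, the second without KI_Chd7del library 1. The ratio itself ranged from 2.17 to 2.55 in KI_Chd7del, 1.76 to 1.83 in KI and 1.55 to 1.60 in WT cells.

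With the replicate number as a block, nuclear calls were 4 higher and 42 lower in KI against WT, 10 and 8 in KI_Chd7del against KI and 2 and 47 in KI_Chd7del against WT cells, and mitochondrial calls 1 and 3, 9 and 0, and 11 and 0. Same-numbered libraries deviated together with correlations of -0.15 to 0.11, and differently numbered ones with -0.17 to 0.21. No pairing by number was seen, but these values cannot tell whether same-numbered libraries shared a batch. With 3 libraries a group and no raw counts, the precision of low genes such as Cox7a1 and Cox4i2 is limited, and genes within near-identical copies cannot be resolved.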
